A study of Mus musculus with 18 samples.

Results

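The alpha, mu and pi classes of cytosolic glutathione transferases were followed in mouse liver through 10 genes, Gsta1, Gsta2, Gsta3, Gsta4, Gstm1, Gstm2, Gstm3, Gstm4, Gstm6 and Gstp1. They were taken by gene symbol from a deposited expression table of 58126 genes, all 10 were found, and all 10 passed the filter on low values. The table came from RNA sequencing of 18 liver libraries of C57BL/6 mice in 5 groups. A liver-specific knockout of Ftcd (LKO) was set beside wild-type (WT) littermates. Ftcd encodes an enzyme of histidine breakdown and folate metabolism. The untreated WT group had 3 libraries and the untreated LKO group had 3, both from mice aged 12 months. The other mice received diethylnitrosamine (DEN), a carcinogen that hepatocytes activate, as 1 injection of 20 mg/kg into the peritoneum at 14 days of age, and were sampled 12 months after that. These gave 6 nontumour libraries of DEN WT, 3 nontumour libraries of DEN LKO and 3 tumour libraries of DEN LKO. The promoter that drives the liver-specific deletion is not given in the sources used here. Whether each replicate is its own animal is not stated, so p-values measure the spread between these libraries, which may be technical.

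Glutathione transferases join the tripeptide glutathione to reactive electrophiles, which makes these more soluble and ready for export from the cell. The enzymes work as dimers of subunits of the same class. Alpha subunits also reduce lipid peroxides, and Gsta4 is best known for clearing the lipid aldehyde 4-hydroxynonenal. Mu subunits act on epoxides and quinones, and in mouse liver Gstm1 is a major subunit. Pi class Gstp1 is in mice a protein of hepatocytes that is more abundant in male than in female liver, while in rats its relative marks preneoplastic foci. Many genes of these classes are targets of NRF2, a factor that binds antioxidant response elements, and of the nuclear receptors CAR and PXR.

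The libraries differed in ways that the groups do not account for. Ftcd was at 0.1 to 3.16 TPM (a length-corrected share of all transcripts) in the 9 libraries labelled LKO and at 61.17 to 106.1 TPM in 6 of the 9 labelled WT. The other 3 libraries labelled WT (untreated WT 3, DEN WT 1 and DEN WT 2) had 1.77 to 2.5 TPM, which goes against their label. By Xist and Y-linked genes, all 9 libraries labelled WT were XX, and so were DEN LKO nontumour 1 and tumour 1. The 3 untreated LKO libraries, DEN LKO nontumour 2 and 3 and DEN LKO tumour 2 and 3 were XY. In untreated liver, genotype and sex therefore cannot be told apart. Mitochondrially encoded transcripts took 4.243% to 38.824% of the TPM of a library. Hepatocyte markers summed to between 22096 and 106002.3 TPM in all 18 libraries, and 0 of the 12 were at 0 in any group. TPM keeps no read counts, so the depth behind a value is unknown.

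The genes lie in clusters on the mm10 genome (GENCODE M21), and all 10 are protein-coding. The 5 mu genes lie on the minus strand of chromosome 3, in the order Gstm6 (ENSMUSG00000068762, chr3:107938847-107943749), Gstm3 (ENSMUSG00000004038, chr3:107963696-107969283), Gstm2 (ENSMUSG00000040562, chr3:107981702-107986453), Gstm1 (ENSMUSG00000058135, chr3:108012255-108017973) and Gstm4 (ENSMUSG00000027890, chr3:108040408-108044894). On chromosome 9 lie Gsta4 (ENSMUSG00000032348, chr9:78182774-78209349, plus strand), Gsta1 (ENSMUSG00000074183, chr9:78230656-78242684, plus strand) and Gsta2 (ENSMUSG00000057933, chr9:78331018-78355788, minus strand). Gsta3 stands alone on the plus strand of chromosome 1 (ENSMUSG00000025934, chr1:21240589-21265661). Gstp1 (ENSMUSG00000060803, chr19:4035407-4037985, minus strand) lies beside its copy Gstp2 (chr19:4040285-4046023, minus strand).

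Gsta1 and Gsta2, and Gstp1 and its neighbour Gstp2, are near-copies with different levels, and the windows before their start sites are printed to show how alike they are. The RefSeq promoter table (GRCm38.p6) held 9 of the 10 genes. Each window runs from 250 to 61 bases before the start in that table and is written 5′ to 3′ on the strand of the gene. Capitals mark matches on either strand to TGANNNNGC, the loose core of the antioxidant response element, and in Gsta2 the 9 bases that align with the match of Gsta1.
The windows are those of Gsta1 (chr9:78230419-78230608, plus strand), Gsta2 (chr9:78347206-78347395, minus strand), Gstp1 (chr19:4037973-4038162, minus strand) and Gstp2 (chr19:4042282-4042471, minus strand).
Gsta1: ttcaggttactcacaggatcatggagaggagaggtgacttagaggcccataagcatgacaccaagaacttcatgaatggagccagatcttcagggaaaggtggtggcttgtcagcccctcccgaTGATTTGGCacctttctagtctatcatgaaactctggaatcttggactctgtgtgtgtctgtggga
Gsta2: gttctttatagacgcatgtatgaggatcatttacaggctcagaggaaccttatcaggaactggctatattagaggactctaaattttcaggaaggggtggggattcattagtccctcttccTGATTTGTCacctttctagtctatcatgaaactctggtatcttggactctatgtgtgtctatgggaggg
Gstp1: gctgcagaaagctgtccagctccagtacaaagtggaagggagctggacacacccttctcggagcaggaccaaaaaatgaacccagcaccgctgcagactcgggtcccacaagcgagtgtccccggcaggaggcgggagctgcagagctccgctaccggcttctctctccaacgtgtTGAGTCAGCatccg
Gstp2: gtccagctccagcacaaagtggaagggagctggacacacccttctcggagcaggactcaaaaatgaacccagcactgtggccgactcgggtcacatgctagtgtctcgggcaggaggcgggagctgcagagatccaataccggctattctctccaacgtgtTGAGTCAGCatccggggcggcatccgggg
Over the whole promoter windows of 300 bases, Gsta1 and Gsta2 were identical at 232 of 289 aligned bases (80.3%), and Gstp1 and Gstp2 at 243 of 282 (86.2%). The match in Gsta1 starts 126 bases before its start, and the aligned bases of Gsta2 carry the substitution G8T, counted from 1 at the first base of the match, which ends it. Gstp1 and Gstp2 share TGAGTCAGC, which in Gstp1 begins 74 bases before the start. Among 32544 promoters of the table, 41.4% held TGANNNNGC and 12.4% the stricter TGACNNNGC. Of the 9 genes, 5 held TGANNNNGC and 1, Gsta3, held TGACNNNGC. A match describes letters in these windows only.

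Transcripts of some of these genes overlap so far that the split of reads between copies is uncertain. Of the 50-base stretches of Gsta1, 90.5% also occur in another gene, and Gm3776 (chr9:78257129-78269166), which lies between Gsta1 and Gsta2, alone holds 75.7%. For Gsta2 the share was 49.8%, for Gstp1 33.7% (all with Gstp2), for Gstm3 28.8% and for Gstm1 18.9%. It was 6% or less for Gstm6, Gstm2 and Gsta3, and no stretch of Gsta4 or Gstm4 was shared.

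Gstm1 was the most abundant of the 10 in most libraries, and it took 34.2% to 83.4% of their summed TPM. Its level ranked between 13 and 121 among all genes of a library. Untreated WT libraries had 1540.83, 2948.88 and 5071.99 TPM, and untreated LKO libraries had 2063.03, 862.81 and 2511.3 TPM. In DEN WT it was between 1116.24 and 3305.03 TPM, with a median of 1970.41. DEN LKO nontumour libraries had 1674.27, 5210.8 and 13340.55 TPM, and tumours had 4051.07, 9573.68 and 8790.48 TPM. The 3 tumours lay above all 6 DEN WT libraries, whereas DEN LKO nontumour liver overlapped with DEN WT through its first library.

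Gstm3 is a mu gene of lower level, and over the 18 libraries its highest value was 113.5 times its lowest. It was at 44.57, 66.3 and 67.12 TPM in untreated WT and at 30.32, 9.4 and 46.66 TPM in untreated LKO. DEN WT libraries had 26.67 to 87.2 TPM, with a median of 68.08. DEN LKO nontumour libraries had 62.24, 75.75 and 325.09 TPM, and tumours had 164.63, 399.36 and 1067.33 TPM. Each tumour exceeded every DEN WT and every untreated library, but the lowest tumour was below the highest DEN LKO nontumour library.

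The other mu genes, Gstm2, Gstm4 and Gstm6, had their highest mean in the tumours as well. In each case tumour 3 was the highest library, with 659.12 TPM of Gstm2, 111.2 TPM of Gstm4 and 288.45 TPM of Gstm6. Gstm2 in the remaining tumours was at 266.71 and 100.76 TPM, and in DEN WT at 64.44 to 202.49 TPM. Gstm4 in the remaining tumours was at 25.94 and 60.93 TPM, and in DEN LKO nontumour liver at 12.54 to 22.89 TPM. Gstm6 in the remaining tumours was at 59.83 and 72.54 TPM, below the DEN WT median of 94.81. Tumours and DEN WT overlapped for all 3 genes. For Gstm4 alone of the 10, the 3 tumours lay above the 3 DEN LKO nontumour libraries.

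Gsta1 had the widest spread of the 10, with a highest value 444.7 times its lowest. It was at 1.8, 2.74 and 3.01 TPM in untreated WT and at 3.55, 3.65 and 10.64 TPM in untreated LKO. DEN WT libraries had 1.56 to 48.75 TPM, with a median of 4.4. DEN LKO nontumour libraries had 11.37, 73.48 and 147.27 TPM, and tumours had 9.9, 693.69 and 448.57 TPM. In both DEN LKO groups the first library, which was XX, was low, and the remaining ones, which were XY, were above all libraries of the other 3 groups. The neighbouring Gm3776, named after its values were seen, had 1.61, 197.05 and 179.62 TPM in the same tumours and 0.28 to 31.94 TPM in DEN WT.

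Gsta2, whose promoter is so close to that of Gsta1, did not show that range. Its tumours had 8.57, 62.64 and 191.55 TPM, and DEN WT libraries had 11.2 to 99.43 TPM. The ratio of Gsta1 to Gsta2 in TPM was 0.027 to 0.126 in untreated WT, 0.16 to 0.2 in untreated LKO and 0.05 to 0.528 in DEN WT. It was 0.575 to 1.717 in DEN LKO nontumour liver and 1.155 to 11.074 in tumours, so these 2 groups lay above all other libraries, the XX libraries included. Because the 2 genes share sequence, part of the ratio depends on how reads were assigned.

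Gsta3, the alpha gene of highest mean level, had another order of groups, with both WT groups on top. Untreated WT libraries had 1805.42, 462.34 and 267.61 TPM, and untreated LKO libraries had 199.93, 96.98 and 541.1 TPM. In DEN WT it was between 131.67 and 1433.62 TPM, with a median of 1004.6. DEN LKO nontumour libraries had 112.55, 139.92 and 178.52 TPM, and tumours had 145.28, 265.41 and 691.48 TPM. The DEN LKO nontumour libraries lay below 5 of the 6 DEN WT libraries, and the exception was DEN WT 1, at 131.67 TPM. Gsta4 was at 12.18, 134.77 and 187.91 TPM in the tumours and at 13.95 to 127.06 TPM in DEN WT. Its lowest values were in libraries with a high mitochondrial share.

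Gstp1 was the one gene of the 10 whose highest mean was outside the tumours and outside the WT groups. Untreated WT libraries had 503.34, 502.27 and 321.25 TPM, and untreated LKO libraries had 2730.59, 1221.39 and 1038.17 TPM. DEN WT libraries had 282.74 to 778.36 TPM, with a median of 643.54. DEN LKO nontumour libraries had 314.39, 2298.91 and 1612.57 TPM, and tumours had 532.88, 1574.69 and 2492.61 TPM. The untreated groups did not overlap. In DEN LKO the first library of each group stayed within the range of DEN WT and the remaining ones lay above it.

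**Figure D1:**
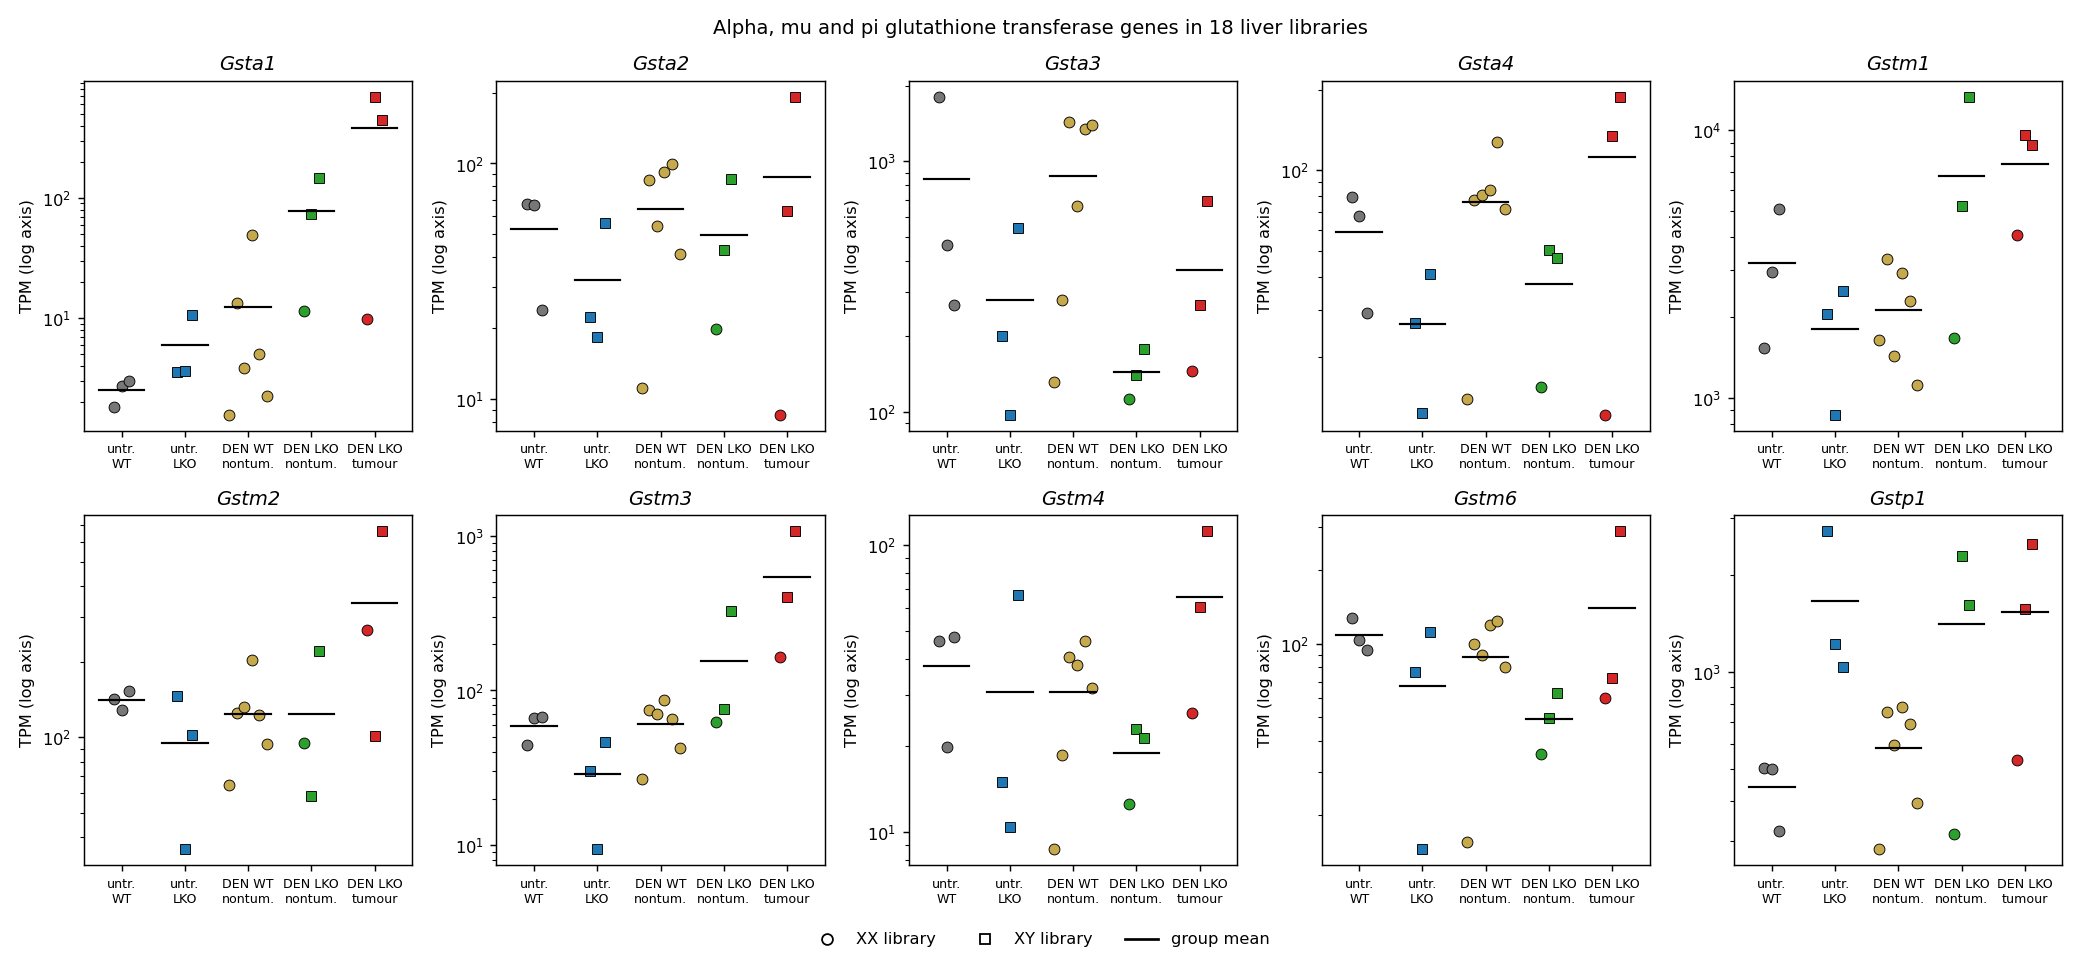
TPM of each gene on a log axis in the 18 libraries, by group (untr., untreated; nontum., nontumour). Circles are XX libraries, squares are XY libraries and lines are group means; the XY tumours have 693.69 and 448.57 TPM of Gsta1 and the XX tumour 9.9.

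For 9 of the 10 genes, no 2 groups next to each other in order of mean differed by more than 1 SD. The exception was Gstm3, for which untreated WT and untreated LKO stood at 59.33 ± 12.79 and 28.79 ± 18.68 TPM (SD, n = 3 each). The mean of Gsta1 ran from 2.52 ± 0.64 TPM in untreated WT (SD, n = 3) to 384.05 ± 346.43 in tumours (SD, n = 3). The mean of Gstm3 in tumours was 543.77 ± 468.36 TPM (SD, n = 3), against 61.17 ± 22.35 in DEN WT (SD, n = 6).

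Summed, the 10 genes took 0.22% to 1.604% of the TPM of a library. The median sum was 4368.2 TPM in untreated WT, 4525.3 in untreated LKO, 4386.05 in DEN WT, 8023.2 in DEN LKO nontumour liver and 12938.5 in tumours. The make-up of the sum varied too. Gstp1 made up 5.3% to 11.5% of it in untreated WT and 22.9% to 53.4% in untreated LKO. The alpha genes made up 7.2% to 46.2% in DEN WT, 2.9% to 6.8% in DEN LKO nontumour liver and 3.3% to 10.2% in tumours. Within the alpha class, Gsta1 was 0.1% to 5.5% in DEN WT and 5.6% to 60% in tumours.

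**Figure D2:**
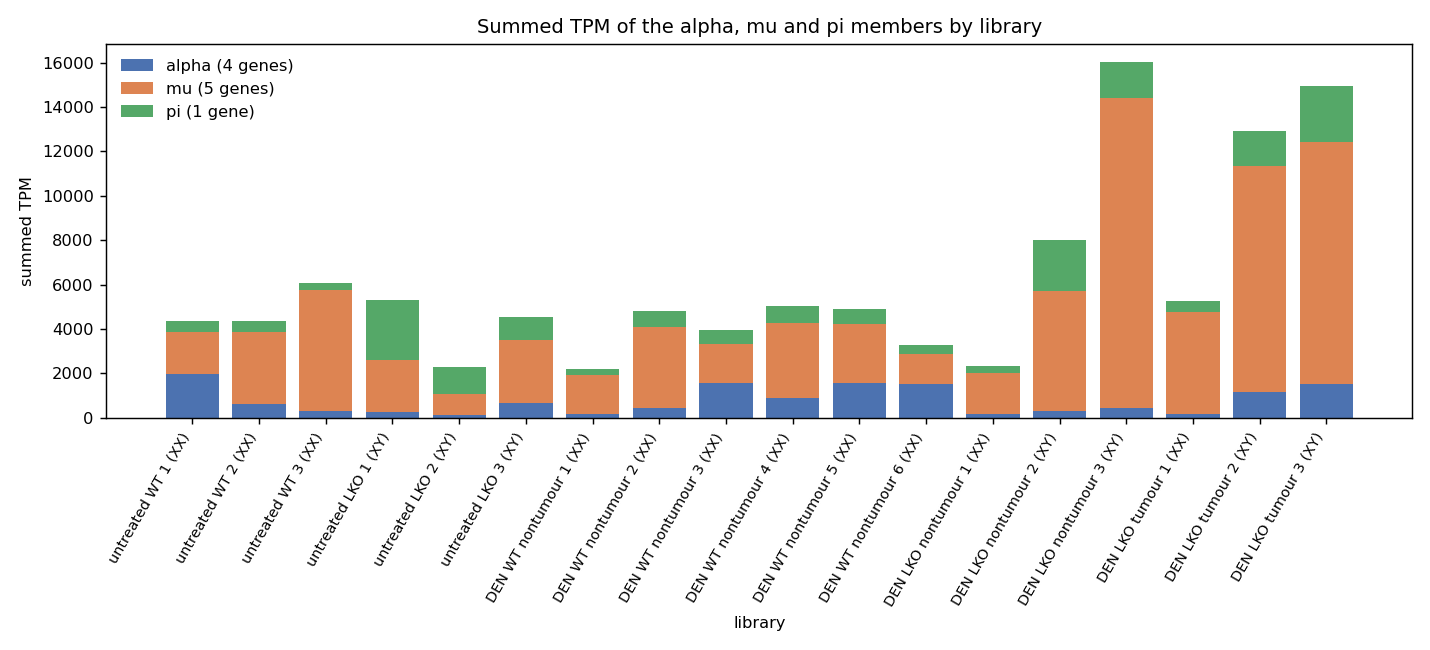
Summed TPM of the alpha, mu and pi genes in each library, stacked. The highest bar, DEN LKO nontumour 3, reaches 16040.6 TPM, and the first library of each DEN LKO group is the lowest of its group.

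Limma on log2(TPM + 1) then compared group means over the 13872 genes that passed the filter, with p-values adjusted over all of them and a threshold of 0.05. None of the 10 genes passed in any of the 6 comparisons or in the interaction. All differences below are differences of mean log2(TPM + 1), with the SE of that fit.

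The tumours of DEN LKO against DEN WT nontumour liver gave the largest differences. Of the 10 genes 0 passed, where 0.497% of all tested genes did, and 3 had an unadjusted p under 0.05 (10.5% of all). Gsta1 was 4.33 ± 1.12 higher (SE, n = 3 and 6; limma adjusted p = 0.103). Gstm3 was 2.83 ± 0.63 higher, with a limma adjusted p of 0.0537, just above the threshold. Gstm1 was 1.82 ± 0.6 higher (limma adjusted p = 0.205). For Gstm3 and Gstm1 all 3 tumours lay above all 6 DEN WT libraries, as was so for 2.05% of tested genes. Over the 10 genes the median difference was 1.09, beside 0.04 for all tested genes, and 8 of the 10 were above 0. The lowest was that of Gsta3, at -1.09.

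The calls in this comparison depended on single libraries. Without tumour 1, the XX tumour, Gsta1 was 6.23 ± 0.96 higher (limma adjusted p = 0.00164) and Gstm3 3.49 ± 0.67 higher (adjusted p = 0.0072), in a fit that called 485 genes in all in place of 69. Without DEN WT 1, the library with the highest mitochondrial share, Gstm3 was 2.62 higher with an adjusted p of 0.0482, and 183 genes were called. Over all 20 alternatives the adjusted p ran from 0.00164 to 1 for Gsta1 and from 0.0072 to 1 for Gstm3. A term for XX or XY took the difference of Gsta1 to 1.41 and that of Gstm3 to 1.73 (limma adjusted p = 0.535 for both). That term is set by the DEN LKO libraries alone, since all libraries labelled WT were XX and all untreated LKO libraries XY. Without the low-Ftcd libraries labelled WT the differences were 4.19 for Gsta1 (adjusted p = 0.0838) and 2.66 for Gstm3 (adjusted p = 0.0501).

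Tumours against the nontumour liver of the same genotype and treatment left 0 of the 10 genes past the threshold, and 0% of all tested genes (0 genes; 380, or 2.74%, had an unadjusted p under 0.05). All 10 genes were above 0, from 0.19 to 1.83, with a median of 1.12 against 0.23 for all tested genes. Scaling by median ratios moved the median of all genes to 0.02, and Gsta2 (-0.11) and Gstp1 (-0.01) then lay below 0. Gstm3 was at 1.83 ± 0.73 and Gstm4 at 1.57 ± 0.71 (SE, n = 3 and 3; limma adjusted p = 0.943 for both). Non-overlapping groups, seen for Gstm4, were higher in 1.81% of tested genes. The DEN liver tumour markers (Afp, Gpc3, H19 and 7 others) summed to 94 to 1666.6 TPM in tumours and 146.1 to 504.3 TPM in DEN LKO nontumour liver, so the 2 kinds of sample overlapped in them. No label says whether a tumour and a nontumour library came from 1 animal.

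Nontumour liver of DEN LKO against DEN WT compares the 2 genotype labels after DEN. DEN LKO nontumour 2 and 3 were XY while all 6 DEN WT libraries were XX, so sex is mixed with genotype. DEN WT 1 and 2 also had low Ftcd, at 2.36 and 2.5 TPM. Again 0 of the 10 genes passed (0.0577% of all tested genes), and 3 had an unadjusted p under 0.05 (13.1% of all). Gsta1 was 2.79 ± 1.12 higher (SE, n = 3 and 6; limma adjusted p = 0.352). Gstm1 was 1.31 ± 0.6 higher (limma adjusted p = 0.374). Gsta3 was 2.16 ± 0.8 lower, a log2 difference of -2.16 (limma adjusted p = 0.338). No gene of the 10 had groups without overlap (4.06% of all tested genes). Median-ratio scaling moved the median of all genes from -0.19 to 0.02, with Gsta1 at 3.03, Gstm1 at 1.61 and Gsta3 at -1.86. Without the 3 low-Ftcd libraries labelled WT, Gsta3 differed by -3.03 ± 0.64 with a limma adjusted p of 0.0227, the lowest of its 20 alternatives (highest, 1). In that fit 1159 genes passed in place of 8. With a term for XX or XY, Gsta1 stood at -0.14 (adjusted p = 0.921) and Gstm1 at 0.14. With that term and the mitochondrial share together, Gsta3 stood at -0.31 (adjusted p = 1).

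Markers of pericentral hepatocytes, the zone in which several mu and alpha subunits are most abundant, also varied between these groups. Their 14 genes summed to 674.4 to 976.3 TPM in DEN LKO nontumour liver and 663.3 to 9184.3 TPM in DEN WT. In tumours the sum was 173.5 to 2183.3 TPM, and in untreated WT it was 1252.1 to 7648.4 TPM. None of the 14 was at 0 throughout a group. The sum is weighted to abundant genes such as Cyp2e1 (mean 2503.9 TPM). Between DEN LKO and DEN WT nontumour liver the median difference of the 14 was -0.89, against -0.19 for all tested genes. Markers of periportal hepatocytes had a median of -0.72 there, and the general hepatocyte markers -0.83. In tumours against DEN WT the medians were -0.46, -1.8 and -1.0 for the pericentral, periportal and general lists. In such bulk tissue, fewer cells of a type and less RNA per cell cannot be told apart. The part of zone markers in the levels of Gsta3 was not tested.

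In untreated liver, where sex and genotype coincide, 0 of the 10 genes passed between LKO and WT (0.433% of all tested genes), and 1 had an unadjusted p under 0.05 (4.15% of all). That gene was Gstp1, 1.8 ± 0.7 higher (SE, n = 3 and 3; limma adjusted p = 0.831). Gstp1 and Gsta1 were higher without overlap, as were 2.45% of tested genes. The other 8 genes were below 0, down to -1.47 for Gsta3, with a median over all 10 of -0.78 against -0.33 for all tested genes. Scaling by median ratios moved the median of all genes from -0.33 to 0 and left the same 8 genes below 0, from -0.96 to -0.17. Without the 3 low-Ftcd libraries labelled WT, Gstp1 was 1.59 higher (adjusted p = 0.581; 0.116 to 1 over 17 alternatives).

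DEN itself was set against no treatment within each genotype. In WT, 0 of the 10 genes passed (0% of all tested genes; 0 genes, and 95, or 0.685%, at an unadjusted p under 0.05). The differences ran from -0.53 to 1.1, with a median of 0.02. Within LKO, 0 of the 10 passed (0.0649% of all) and 3 had an unadjusted p under 0.05 (5.96% of all). Gsta1 was 3.04 ± 1.3 higher (SE, n = 3 and 3; limma adjusted p = 0.746), Gstm3 was 2.22 ± 0.73 higher (adjusted p = 0.488), and Gstm1 was 1.57 ± 0.69 higher (adjusted p = 0.769). Gsta1 and Gstm3 were higher without overlap, as were 9.86% of tested genes. With a term for XX or XY, Gsta1 was 4.5 ± 0.92 higher and passed (limma adjusted p = 0.0233; 0.0205 to 1 over 16 alternatives), in a fit that called 189 genes in all in place of 9. Whether the effect of genotype depended on DEN was tested as an interaction, which gave 0 of 10 (0% of all; 332 genes, 2.39%, at an unadjusted p under 0.05), with 2.26 ± 0.96 for Gstm3 and 2.1 ± 0.91 for Gstm1 (limma adjusted p = 1 for both). These comparisons share libraries, so their values are not independent of each other.

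**Figure D3:**
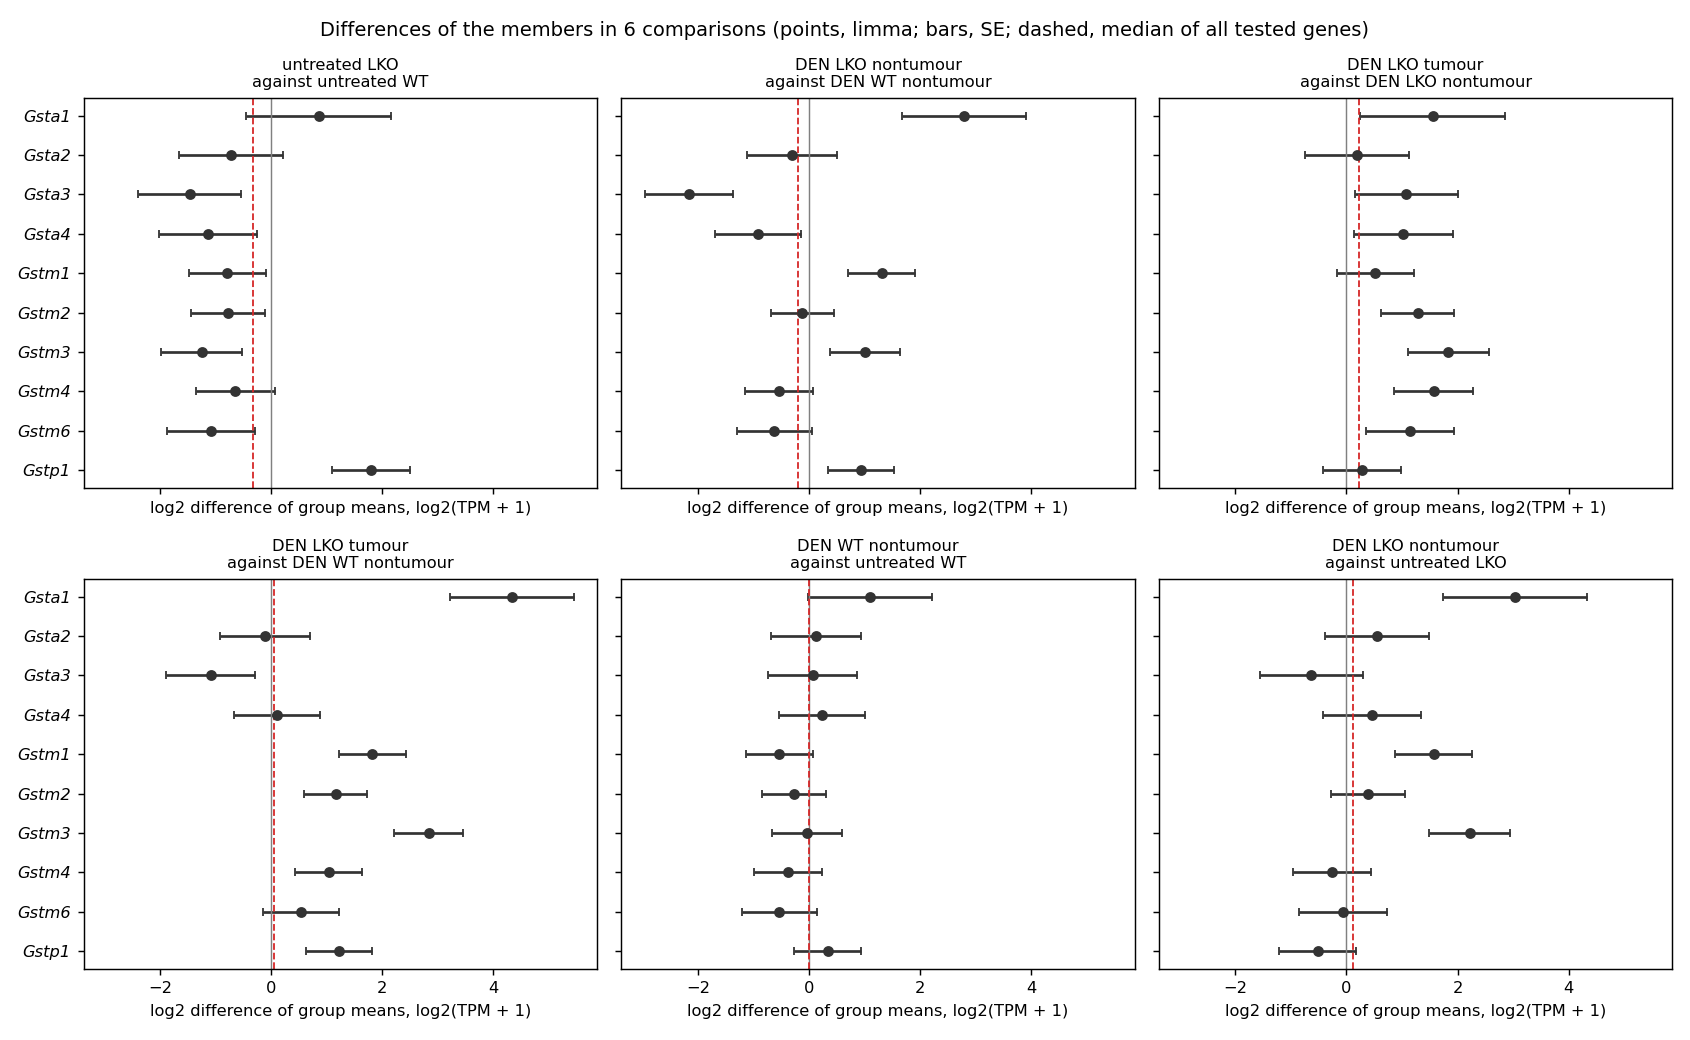
Differences of mean log2(TPM + 1) for the 10 genes in the 6 comparisons between groups. Points are limma estimates, bars are SE and the dashed red line is the median of all tested genes; the largest, 4.33 for Gsta1, is between tumours and DEN WT.

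Gstp1 separated the XY from the XX libraries. Every XY library was LKO and 9 of the 11 XX libraries were labelled WT, so this split is close to that by genotype. All 7 XY libraries (1038.17 to 2730.59 TPM, median 1612.57) lay above all 11 XX libraries (282.74 to 778.36 TPM, median 503.34). Among tested genes, 0.0865% (12 genes) had all XY above all XX libraries, and Gstp1 was the only one of the 10 genes among them. Gsta1 overlapped, with a median of 73.48 TPM in XY and 3.83 TPM in XX libraries. A fit with XX or XY as a term, taken up as a result after its values were seen, can be read only within DEN LKO, where 4 libraries were XY and 2 were XX. In this fit of all 18 libraries, Gsta1 was 4.38 ± 0.92 higher in XY libraries (limma adjusted p = 0.0298). Gstp1 was 2.25 ± 0.51 higher (adjusted p = 0.0406), where 1.3% of tested genes passed. The XX libraries of DEN LKO were nontumour 1 and tumour 1, and the XY ones had numbers 2 and 3. Whether same-numbered libraries came from the same animal is not stated, and these p-values treat each library as independent. The remaining 8 genes did not pass, and the closest was Gsta4, 2.6 ± 0.73 higher (adjusted p = 0.0972).

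The 2 XX libraries of DEN LKO also had the highest mitochondrial shares of their groups, 36.879% and 31.439%, against 10.504% to 19.186% in the 4 XY libraries. Their hepatocyte markers summed to 23840.8 to 31558.2 TPM, against 43221.1 to 78423.6 TPM in the XY libraries. With the mitochondrial share in the fit, Gsta1 was 4.18 higher (adjusted p = 0.0696) and Gstp1 1.88 higher (adjusted p = 0.0742). Without tumour 1 the term of Gsta1 was 3.09 (adjusted p = 0.977) and that of Gstp1 2.61 (adjusted p = 0.82). Over 13 alternatives the adjusted p ran from 0.032 to 0.977 for Gsta1 and from 0.0281 to 0.82 for Gstp1. Within DEN LKO, 5 of the 10 genes (Gsta1, Gsta2, Gsta4, Gstm1 and Gstp1) had all XY above both XX libraries, as did 45.4% of all tested genes. A fit of all 18 libraries with the 5 group means gave the slope on the mitochondrial share within groups. In it 6 of the 10 genes passed as lower at a higher share, where 47.1% of all tested genes passed in that direction. The steepest were Gsta3, at -1.12 per doubling of the share, Gsta4 at -1.05 and Gsta2 at -1.04. Gstm1, at -0.11, and Gsta1, at -0.72, did not pass.

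**Figure D4:**
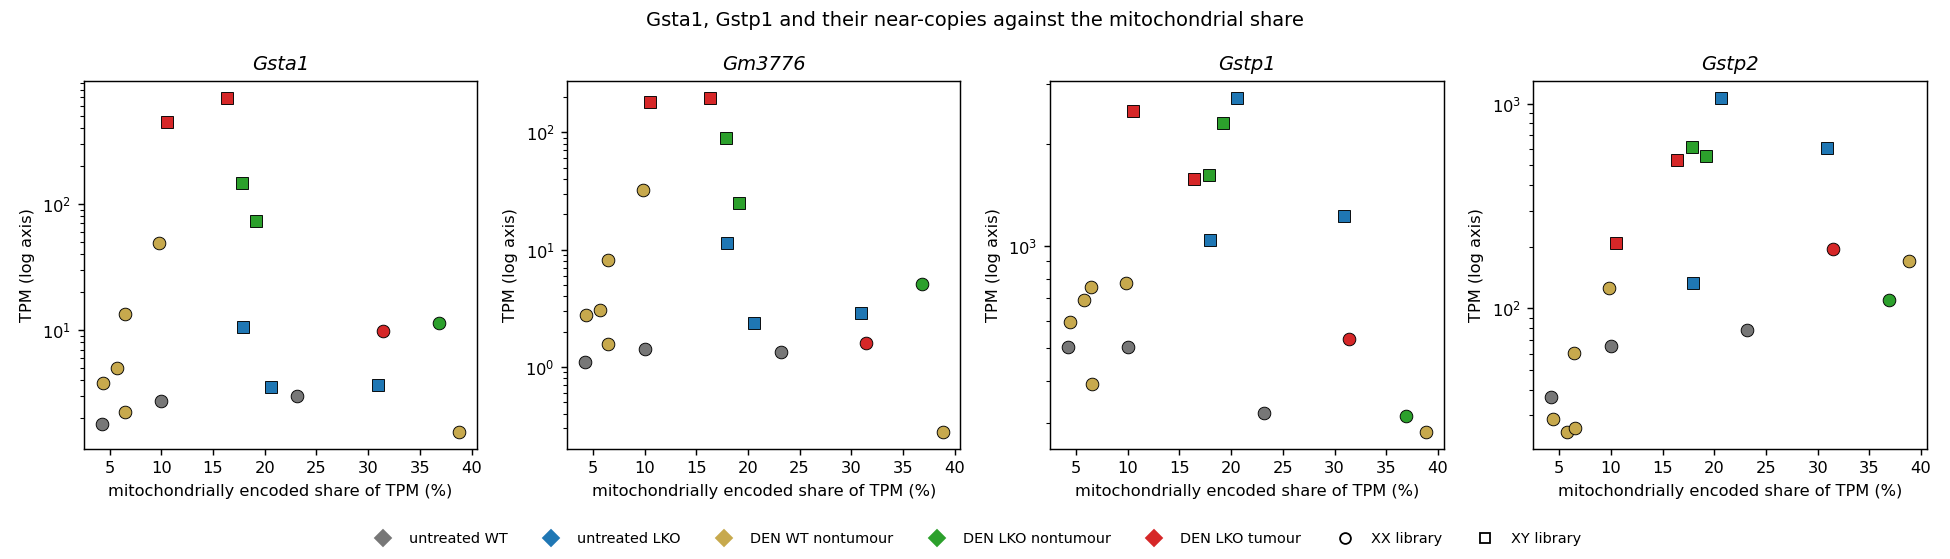
TPM of Gsta1, Gm3776, Gstp1 and Gstp2 (log axes) against the mitochondrially encoded share of TPM, 1 point per library. Colours are groups, circles XX and squares XY libraries; for Gstp1 every square lies above every circle.

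Gstp2, the pi copy beside Gstp1, had the same direction between untreated groups. It was at 37.05, 65.25 and 78.4 TPM in untreated WT and at 1067.41, 604.92 and 132.54 TPM in untreated LKO, without overlap, a difference of 2.92 ± 0.87 (SE, n = 3 and 3; limma adjusted p = 0.373). Its XX and XY libraries overlapped, because DEN LKO tumour 1, an XX library, had 195.55 TPM and untreated LKO 3 had 132.54 TPM. The ratio of Gstp2 to Gstp1 ran from 0.036 to 0.601 over the libraries. Gstp3, the next pi gene, went the other way in untreated liver, at 74.51, 74.54 and 132.47 TPM in WT and 27.29, 15.45 and 61.73 TPM in LKO (-1.57 ± 0.69, limma adjusted p = 0.831).

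The rest of the glutathione pathway was read from lists. Of 13 other glutathione transferase genes tested, 0 passed in any comparison, where 0% to 0.497% of all tested genes did. Their median between tumours and DEN WT was -0.55, against 1.09 for the 10 genes and 0.04 for all. In that comparison 7 of the 13 had an unadjusted p under 0.05 (10.5% of all). These lay in both directions, with Gsto1 at -2.06 and Gstp2 at 2.35. Mgst1, a microsomal transferase and the most abundant of that list, differed by -0.56 ± 0.65 there (limma adjusted p = 0.847). Of 18 genes for glutathione supply, recycling and export, 0 passed in that comparison (0.497% of all tested genes), with a median of 0.15. An unadjusted p under 0.05 was found for 3 of them (10.5% of all). Gpx1, which reduces hydrogen peroxide, was at -2.62 ± 0.91 (adjusted p = 0.24), and Gpx4, which reduces lipid peroxides, at 1.01 ± 0.39 (adjusted p = 0.309). Of 22 NRF2 targets outside the family, 0 passed (0.497% of all tested genes) and the median was 0.48. An unadjusted p under 0.05 was found for 4 of the 22 (10.5% of all). Among the 22, Sqstm1, an adaptor protein of autophagy, was at 0.66 ± 0.53 (adjusted p = 0.747). The more abundant targets Ftl1, Fth1 and Prdx1 were at 0.03, -0.18 and -0.75. Of 12 CAR and PXR targets, 2 were lower in tumours than in DEN WT and 0 higher, with a median of -1.68, where 0.238% of all tested genes were lower. These were Cyp2b13 (-5.21 ± 0.85, limma adjusted p = 0.01) and Cyp2b9 (-4.15 ± 0.73, adjusted p = 0.0168), cytochromes P450 that are also female-biased in mouse liver. Both were lower in untreated LKO than in untreated WT as well (-6.13 ± 0.98, limma adjusted p = 0.00355, and -5.51 ± 0.84, adjusted p = 0.00273). Between tumours and DEN LKO nontumour liver 0 of the 12 passed, where 0% of all tested genes did, so that count says nothing particular about this list.

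Lists of sex-biased liver genes were counted beside these, since most LKO libraries were XY and all WT libraries XX. Of 22 female-biased genes, 14 were lower in untreated LKO than in untreated WT (0.26% of all tested genes). In nontumour liver, 2 were lower in DEN LKO than in DEN WT (4 of all 13872 tested genes). In tumours, 8 were lower than in DEN WT (0.238% of all tested genes). Of 23 male-biased genes, 8 were higher in untreated LKO than in untreated WT (0.173% of all tested genes). Against DEN WT, 0 passed in DEN LKO nontumour liver (0.0577% of all tested genes) and 0 in tumours (0.497% of all). Between tumours and DEN LKO nontumour liver 0 genes of either list passed, where 0% of all tested genes did, so the lists cannot be told from other genes there.

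The gene most like each of the 10 over the 18 libraries, leaving out the 10 themselves and the list of other glutathione transferase genes, was found by the Pearson correlation of log2(TPM + 1), as a description, since all points share the library differences above. Gsta1 was closest to its own copy Gm3776 (r = 0.978). Gsta3 was closest to Aven (r = 0.982), Gsta4 to Acp5 (r = 0.957), Gsta2 to Ift43 (r = 0.95) and Gstp1 to Selenbp2 (r = 0.903). For the mu genes the values were 0.953 for Gstm6 with Mrpl36, 0.942 for Gstm4 with Pars2, 0.9 for Gstm1 with Mettl3, 0.88 for Gstm3 with Ctps2 and 0.818 for Gstm2 with Gm9803.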

How the data were processed

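Liver RNA was extracted with TRIzol and sequenced from TruSeq libraries, per the labels' protocols. The authors deposited 1 table of TPM. It was made with RSEM, HISAT, fastp and the mm10 build, per the submitters' processing notes; how each was run, and in which version, is not given in the sources used here. Libraries added up to 999999.07 to 1000000.85 TPM. No read counts are held, so depth and counting error are unknown. There were 0 other columns per sample.

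The 13872 genes that reached 1 TPM in 3 or more of 18 libraries were tested with limma 3.58.1 in R 4.3.3 on log2(TPM + 1), which understates changes of low genes. The model had 5 group means, an intensity trend and 13 residual degrees of freedom. Tests were 2-sided, with Benjamini-Hochberg adjustment over all genes per comparison. The fit was checked on simulated data. The 10 genes were named whatever their result, beside their most alike gene, up to 4 genes per list and Ftcd. The genes and lists were chosen with earlier results of these data known. Motifs, alignments and shared 50-base stretches were computed in Python 3.11.15 with Biopython 1.88. Alternatives were another pseudocount, no filter, 2 scalings, smaller fits, a replicate block, terms for sex and mitochondrial share, and leaving out libraries.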

Additional observations from a re-analysis of the deposited data

Results flagged for a closer look

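In DEN WT nontumour liver, the 1 group with enough libraries to be screened for single outlying values, Gsta1 in library 4 was at 48.75 TPM, while the other 5 libraries had 1.56 to 13.41 TPM. Its gap to the nearest library was 0.749 of the range of the group, above Dixon's critical value for 6 libraries. It was 1 of 10 genes screened, and the gap was taken on TPM rather than on log2(TPM + 1). Chance flags about 1 in 20 groups if values are normally distributed, which was not tested for the skewed TPM of Gsta1. The near-copy Gm3776 holds 75.7% of the 50-base stretches of Gsta1, so its level is not independent of that of Gsta1. It was also highest in library 4, at 31.94 TPM. The mitochondrial share there was 9.817%, and the library was XX with Ftcd in the range of the other WT libraries.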

How the results depend on the processing

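Over 16 to 26 alternatives per comparison, 1337 of 1350 differences of single genes kept their side of the threshold. None of the 10 genes passed in a main fit, so no call could be lost, and this count does not measure how stable the differences were. In the alternatives 13 became significant and 0 significant ones reversed, while 108 that passed in neither fit changed sign. Between tumours and DEN WT, where 0 of the 10 genes passed, 2 passed with median-ratio scaling, with quantile normalization and with the mitochondrial share as covariate, each time Gstm3 and Gsta1 (adjusted p for Gsta1 of 0.0454, 0.0445 and 0.0449), while 313, 234 and 161 genes were called in all, against 69. Leaving out 1 library gave 0 to 2 there. Between DEN LKO and DEN WT nontumour liver, 1 gene, Gsta3, passed without the low-Ftcd libraries labelled WT. Between DEN LKO nontumour and untreated LKO, 1 passed with a term for XX or XY and 2 (Gsta1 and Gstm3) with terms for sex and mitochondrial share, a fit added after the data were seen, while 189 and 352 genes were called in all, against 9. Summing Gsta1 with Gm3776, also added later, changed no call.

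The higher Gsta1 and Gstp1 of XY libraries lost significance without the filter (adjusted p = 0.0573 and 0.057), with median-ratio scaling (log2 differences of 3.5 and 1.33, adjusted p = 0.119 and 0.345) and in DEN LKO alone (adjusted p = 0.186 and 0.214). Gsta1 also lost it with quantile normalization (adjusted p = 0.0653). Leaving out 1 DEN LKO library gave 3.09 to 5.68 for Gsta1 and 1.89 to 2.61 for Gstp1. Gsta1 lost its call without nontumour 1 (adjusted p = 0.0505) and without tumours 1, 2 and 3 (0.977, 0.0516 and 0.0734). Gstp1 lost it without nontumour 1, 2 and 3 (0.232, 0.0981 and 0.0581) and without tumours 1 and 3 (0.82 and 0.0979).

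Fits with the replicate number as a block held the compared groups alone, and of these only libraries with shared numbers. In them 0 of the 10 genes passed in any comparison, and 0 of all genes between tumours and DEN WT. For tumours and DEN WT, the compared groups alone without a block gave 3 genes, and the main fit gave 69. Same-numbered libraries of those groups correlated in their deviations from the group means at 0.608, 0.005 and 0.434, and at 0.557, 0.107 and 0.52 with means over the shared numbers alone. The values were similar with either set of means, and these groups differ in genotype label. Between tumours and DEN LKO nontumour liver the same correlations were 0.347, 0.301 and -0.034. They were -0.631, 0.232 and -0.463 between DEN WT and untreated WT, and -0.005, -0.224 and -0.23 between DEN LKO nontumour and untreated LKO. In the remaining comparisons they lay between -0.256 and 0.181. Libraries with different numbers were not correlated, so there is no baseline for these values. Whether the numbers pair libraries is not stated in the labels. Over all alternatives the genes called between DEN LKO and DEN WT nontumour liver ran from 0 to 1159. The cause of these changes was not tested.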
